A study of Mus musculus with 6 samples.

Results

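The 8 genes described here encode receptors that use gp130 and the receptor for IL-10, together with the transcription factor that both engage and inhibitors of cytokine signalling. They are *Il6ra*, *Il6st* and *Il27ra* of the gp130 receptors, *Il10ra* and *Il10rb* of the IL-10 receptor, the transcription factor gene *Stat3*, and the inhibitor genes *Socs3* and *Socs1*. They were chosen by gene symbol from the 37305 genes of the expression table, each symbol matched 1 row, and all 8 were expressed highly enough to be tested. RNA was sequenced from regulatory T (Treg) cells of mouse spleen, sorted as CD4+CD25+ cells, in 2 genotypes on the C57BL/6 background with 3 libraries each. The control genotype is JUNBFl/Fl, whose *Junb* gene has loxP sites on both sides and which carries no Cre. The other genotype is Cd4cre JUNBFl/Fl, in which Cre made from *Cd4* regulatory sequences deletes *Junb*, a subunit of the transcription factor AP-1, in all T cells that have passed the CD4-expressing stage and not in Treg cells alone. No control that carries Cre without the floxed gene was analysed here. Libraries carry the numbers 1 to 3 within each genotype, and where 3 values are listed for a genotype they stand in that order. The labels do not say that libraries of the same number are pairs, so comparisons within a number are descriptive. The labels give neither the age nor the number of mice behind a library, and p values therefore cover only the spread among these libraries, which may be technical. For its experiments in general the study states an age range and that mice were sex-matched, without naming these libraries.

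gp130, the protein of *Il6st*, is the signalling chain shared by many cytokine receptors. IL-6 is bound first by the IL-6 receptor chain (*Il6ra*), and IL-27 is received by a pair of gp130 and the IL-27 receptor chain (*Il27ra*). IL-10 is bound by *Il10ra*, and *Il10rb* is an accessory chain that is also used by other cytokines of that family. Janus kinases bound to these chains phosphorylate STAT3, which enters the nucleus and induces, among others, *Socs3*. SOCS3 binds gp130 and blocks it, while the IL-10 receptor is largely insensitive to SOCS3, and SOCS1 inhibits Janus kinases more widely. In Treg cells STAT3 is known to be needed for the restraint of Th17 responses, and IL-10 signalling maintains the suppressive state, while IL-6 opposes the generation of Treg cells from naive T cells.

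To check the genotypes, *Junb* was examined first. Its level in the *Junb*-deficient library was 19.6%, 16.5% and 14.8% of that in the control of the same number for numbers 1, 2 and 3. *Foxp3*, which defines the lineage, ranged from 115 to 161 FPKM in controls and from 130 to 153 FPKM after deletion (FPKM, fragments scaled by transcript length and sequencing depth). The libraries numbered 1 stood apart from the others in both genotypes. The early response gene *Nr4a1* was at 491 and 837 FPKM in them and at 70.0 to 82.6 in the other 4. Not all early response genes examined followed it in controls. *Fos*, *Jun*, *Dusp1*, *Egr2*, *Cd69* and *Myc* were lower in control 1 than in control 2, and the others were higher. Among *Junb*-deficient libraries all of them were highest in number 1. Summed over 8 myeloid marker genes they held 248 (control) and 145 (*Junb*-deficient) FPKM, where the other 4 held 25.4 to 75.3, and over 7 B cell marker genes 679 and 817 against 125 to 220, most of it from *Cd74*. Number 3 sets a control with 21.5 FPKM of the Y-linked gene *Ddx3y* against a *Junb*-deficient library with 0.00766. *Xist*, which is expressed in female cells, was at 8.35 and 54.0 FPKM in them. The libraries numbered 1 held both genes too, with *Xist* at 8.30 (control) and 17.9 FPKM (*Junb*-deficient). In number 2 *Xist* was at 0.0145 and 0.0239 FPKM. Control 3 thus held RNA of both kinds, and number 3 is not a plain comparison of male with female. Fewer cells of a type and less RNA per cell cannot be told apart in such bulk samples. The number of reads behind a value is unknown, and the sequencing depth estimated from the lowest values was 0.354 to 0.801 of that of control 1 in the other libraries.

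*Stat3* was the only one of the 8 genes that passed the thresholds of the study, which ask for a log2 difference of more than 0.5 and for p below 0.05 before adjustment, and such genes are said to have risen or fallen here. *Stat3* (mm9 as for all positions here, chromosome 11, minus strand, 100746412 to 100800854) encodes the transcription factor on which all the receptors of this group converge. The controls had 78.8, 57.8 and 54.9 FPKM of *Stat3* and the *Junb*-deficient libraries 125, 76.7 and 104 FPKM. Each *Junb*-deficient library lay above the control of its number, and only *Junb*-deficient 2 fell below the highest control, control 1, so that the groups overlapped by that pair. The widest gap within a number, 0.91 in log2(FPKM + 1), was in number 3, whose libraries also differ in *Ddx3y* and *Xist*. The part of that difference was not tested. *Stat3* rose from 63.9 ± 13.1 to 102 ± 24.4 FPKM (SD, n = 3). The difference was 0.66 (SE 0.25, 95% interval 0.08 to 1.24) on the scale of log2(FPKM + 1) (limma, adjusted p = 0.834). With the replicate number as a block limma gave adjusted p = 0.224, and without both libraries numbered 1, where 6.74% of genes rose, the difference was again 0.66 (adjusted p = 0.0891, limma). Over all alternatives the adjusted p ran from 0.0439 to 0.9998. Of all 11781 genes tested 1.67% rose and 2.89% fell by the same thresholds, 4.56% in either direction, with 197 higher and 340 lower. The split was 246 to 280 under median-ratio scaling, 257 to 263 under quantile scaling and 206 to 219 with a length correction. In limma 0 genes passed after adjustment, while 636 lay below 0.05 before it, and with the replicate block 0.00849% passed after adjustment. The call of *Stat3* was lost on leaving out control 2 (0.60), control 3 (0.56), *Junb*-deficient 1 (0.50) or the third *Junb*-deficient library (0.63), and a correction of each library for exon length, added after seeing the data, brought the difference to 0.49.

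The last 72 bases of *Stat3* overlap the gene model of *Stat5a*, which runs on the opposite strand. The libraries were made with a strand-marking kit, but the sources used here do not say how the counting used strand, so a small part of the *Stat3* signal may be shared. For *Stat5a* the controls had 41.0, 27.9 and 28.7 FPKM and the *Junb*-deficient libraries 76.5, 32.0 and 43.8 FPKM. Its difference was 0.56 (SE 0.33) and did not pass in the unpaired limma test (adjusted p = 0.839), whereas it passed with the replicate block (adjusted p = 0.265). Without *Junb*-deficient 1 the difference was 0.22, and without both libraries numbered 1 it was 0.39, neither of them called. The B cell marker sum was also above the control of its number in each *Junb*-deficient library, at 817 against 679, 219 against 140 and 220 against 125 FPKM for numbers 1, 2 and 3. Its part in the result for *Stat3* was not tested. All 7 B cell genes had positive differences, as did 44.0% of all genes tested. None passed in the unpaired test, where 4.56% of all genes did. With the replicate block 3 rose (*Cd22*, *Cd79a* and *Cd74*), as did 3.58% of all genes. None of the 7 was at 0 in any library, *Cd79b* ranged from 17.6 to 24.3 FPKM, and *Ms4a1*, which encodes CD20, reached 7.17 FPKM in *Junb*-deficient 1 and no more than 2.28 FPKM elsewhere.

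**Figure D1:**
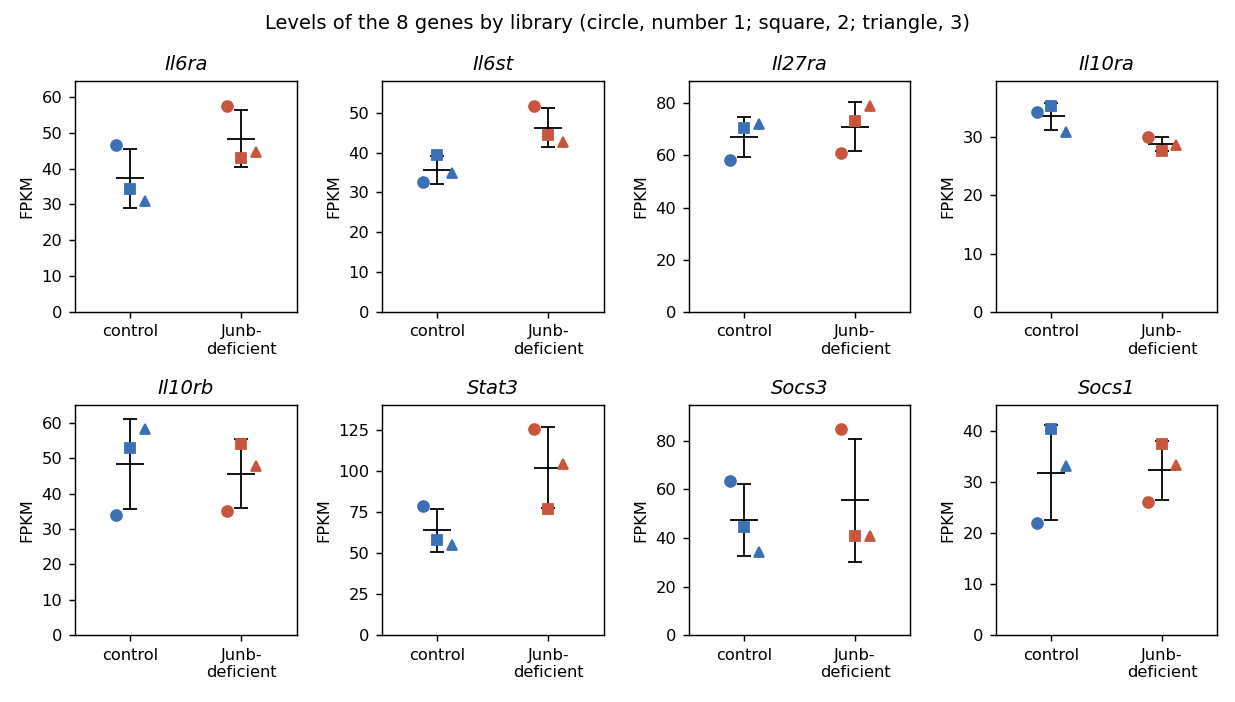
FPKM (y axes from 0) of each gene in the 3 control (blue) and 3 Junb-deficient (red) libraries; circles, squares and triangles are replicate numbers 1, 2 and 3, and the bars are the mean and SD. The Junb-deficient libraries lie above all controls for Il6st and below all controls for Il10ra, and Stat3 spans 54.9 to 78.8 in controls and 76.7 to 125 in Junb-deficient libraries.

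Among the receptor chains, the gp130 gene *Il6st* was the one whose groups were separated upward. *Il6st* (chromosome 13, plus strand, 113265216 to 113297068) measured 32.7, 39.3 and 34.8 FPKM in the controls and 51.8, 44.3 and 42.6 FPKM after deletion. Every *Junb*-deficient library thus lay above every control, as for 4.58% of all genes tested. Mean levels were 35.6 ± 3.41 and 46.2 ± 4.86 FPKM (SD, n = 3). The difference was 0.37 (SE 0.17, 95% interval -0.03 to 0.76), which did not pass (limma, adjusted p = 0.834). The *Junb*-deficient level was 1.59 times that of the control in number 1 and 1.13 and 1.22 times in numbers 2 and 3, so the widest gap came from the libraries that stood apart. Without those libraries the difference was 0.23, and the replicate block gave adjusted p = 0.365 in limma.

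*Il6ra* (chromosome 3, minus strand, 89673246 to 89717084), whose protein captures IL-6 before gp130 joins, measured 46.6, 34.4 and 31.0 FPKM in the controls. After deletion it measured 57.6, 43.0 and 44.6 FPKM. Control 1 alone exceeded any *Junb*-deficient library, and within each number the *Junb*-deficient library was above its control by 1.24, 1.25 and 1.44 times. Mean levels were 37.3 ± 8.20 and 48.4 ± 8.02 FPKM (SD, n = 3), with a difference of 0.37 (SE 0.22, 95% interval -0.13 to 0.88) that did not pass (limma, adjusted p = 0.834). With the replicate block it did not pass either (limma, adjusted p = 0.334), since the difference is short of 0.5. *Il6ra* rose without control 1 (difference 0.54, limma, adjusted p = 0.177), a fit that keeps *Junb*-deficient 1, the library with the highest *Il6ra*. Without both libraries numbered 1 the difference was 0.41 and not called. Control 1 was the control with the most myeloid marker RNA, and the part of that was not tested.

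*Il27ra* (chromosome 8, minus strand, 86554186 to 86566488) was expressed at the highest mean level of the receptor chains. The controls had 58.1, 70.7 and 72.2 FPKM and the *Junb*-deficient libraries 60.9, 73.3 and 79.1 FPKM. The groups overlapped, with *Junb*-deficient 2 and 3 above all controls, and within numbers the *Junb*-deficient library was 1.05, 1.04 and 1.09 times its control. The difference of 0.082 (SE 0.19) had a 95% interval from -0.36 to 0.52 and did not pass (limma, adjusted p = 0.943), and it was -0.016 without control 1.

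Both IL-10 receptor chains had negative differences, and neither passed. *Il10ra* (chromosome 9, minus strand, 45061922 to 45077232), the chain that binds IL-10, measured 34.3, 35.4 and 31.0 FPKM in the controls and 30.1, 27.7 and 28.6 FPKM after deletion. No library without *Junb* reached the lowest control, a separation seen for 6.36% of the genes tested, although the nearest pair, control 3 and *Junb*-deficient 1, were close. Mean levels were 33.6 ± 2.31 and 28.8 ± 1.202 FPKM (SD, n = 3), the smallest spread of the 8 genes in either genotype. The difference was -0.21 (SE 0.15, 95% interval -0.57 to 0.15) and did not pass (limma, adjusted p = 0.842). It kept its sign in every one of the 19 alternatives run, from -0.27 to -0.13.

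*Il10rb* (chromosome 16, plus strand, 91406409 to 91426074) measured 33.9, 52.9 and 58.1 FPKM in the controls and 35.2, 54.1 and 47.7 FPKM after deletion. The low values were those of number 1 in both genotypes, and the groups overlapped throughout. The difference of -0.066 (SE 0.26, 95% interval -0.68 to 0.55) did not pass (limma, adjusted p = 0.968) and turned positive under quantile scaling and without control 2, control 3 or *Junb*-deficient 1. Its gene model shares 569 exonic bases with that of *Ifnar2*, an interferon receptor chain on the same strand, so reads there could have been assigned to either gene. *Ifnar2* itself was at 48.8 to 55.0 FPKM in controls and 47.9 to 52.1 FPKM in *Junb*-deficient libraries, and did not share the low values of *Il10rb* in number 1.

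Of the inhibitors, *Socs3* (chromosome 11, minus strand, 117827393 to 117831361) measured 63.5, 44.5 and 34.1 FPKM in the controls. After deletion it measured 84.6, 41.0 and 40.7 FPKM. The libraries numbered 1 were the highest of their genotype, and the other 4 lay between 34.1 and 44.5 without order by genotype. Mean levels were 47.4 ± 14.9 and 55.5 ± 25.3 FPKM (SD, n = 3), and the difference of 0.18 (SE 0.35, 95% interval -0.63 to 0.995) did not pass (limma, adjusted p = 0.930). Its sign turned without control 3 (-0.027) or *Junb*-deficient 1 (-0.16).

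*Socs1* (chromosome 16, minus strand, 10783901 to 10785629) measured 22.04, 40.4 and 33.3 FPKM in the controls and 26.2, 37.5 and 33.5 FPKM after deletion. Here the libraries numbered 1 were the lowest of their genotype, the opposite of *Socs3*. Mean levels were 31.9 ± 9.25 and 32.4 ± 5.74 FPKM (SD, n = 3), and the difference of 0.047 (SE 0.26, 95% interval -0.56 to 0.65) did not pass (limma, adjusted p = 0.976). Its sign turned without control 1 (-0.19), *Junb*-deficient 2 (-0.063) or both libraries numbered 1 (-0.048).

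**Figure D2:**
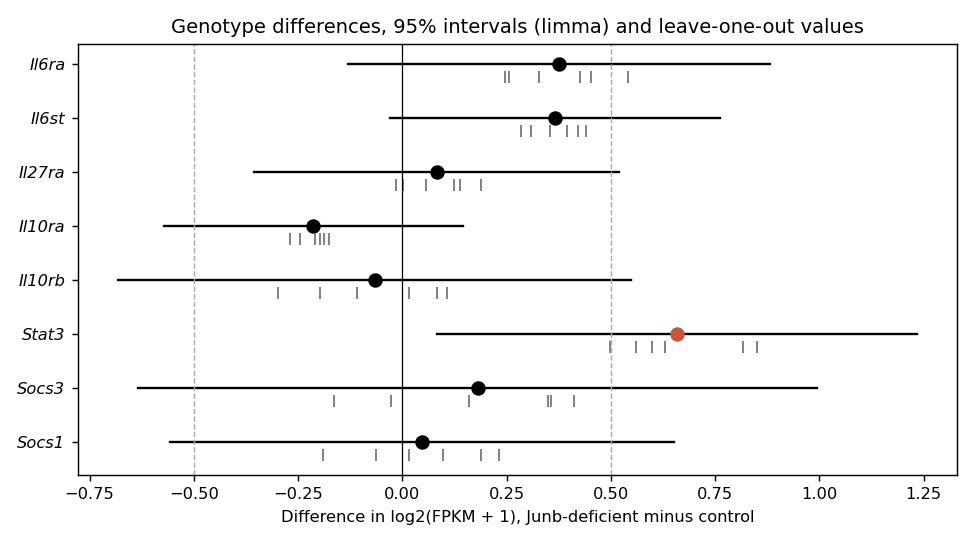
Difference in log2(FPKM + 1), Junb-deficient minus control (x axis), of each gene (y axis) with its 95% interval from limma; grey ticks are the values with 1 library left out, and dashed lines mark the study's threshold of 0.5. Stat3 (red) has the 1 interval that lies above 0, and the ticks of Il27ra, Il10rb, Socs3 and Socs1 fall on both sides of 0.

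To set the regulatory sequences beside these values, the promoters of *Stat3*, which rose, *Il6st*, whose groups were separated, and of *Socs3*, a target of STAT3, are shown. Sequences are from RefSeq, 250 bases before to 50 after the annotated start, read 5′ to 3′ on the strand of the gene and placed on mm9 by exact match, and 5 of the 8 genes had an entry (*Il6ra* and *Socs1* are the others). Capitals mark matches to TTCNNNGAA, which STAT proteins bind, or to TGANTCA, which AP-1 binds. Both strands were searched.
Stat3 (chr11:100800805-100801104, minus strand): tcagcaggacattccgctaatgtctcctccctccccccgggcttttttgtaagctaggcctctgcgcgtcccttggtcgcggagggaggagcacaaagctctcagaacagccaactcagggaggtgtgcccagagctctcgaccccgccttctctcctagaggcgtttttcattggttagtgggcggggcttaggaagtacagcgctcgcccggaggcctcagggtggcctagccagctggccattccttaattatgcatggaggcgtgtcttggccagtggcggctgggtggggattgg
Il6st (chr13:113254028-113254327, plus strand): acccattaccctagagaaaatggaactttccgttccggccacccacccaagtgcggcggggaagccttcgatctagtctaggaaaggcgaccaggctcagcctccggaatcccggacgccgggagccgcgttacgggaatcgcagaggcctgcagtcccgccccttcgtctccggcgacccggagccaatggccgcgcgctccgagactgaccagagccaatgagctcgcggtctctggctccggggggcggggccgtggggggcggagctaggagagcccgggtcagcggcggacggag
Socs3 (chr11:117830631-117830930, minus strand): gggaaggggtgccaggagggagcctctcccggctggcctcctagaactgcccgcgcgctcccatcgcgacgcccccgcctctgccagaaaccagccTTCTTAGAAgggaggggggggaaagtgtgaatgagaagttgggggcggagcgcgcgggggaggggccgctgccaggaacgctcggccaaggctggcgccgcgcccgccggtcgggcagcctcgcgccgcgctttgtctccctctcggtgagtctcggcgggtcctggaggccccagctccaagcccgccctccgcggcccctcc

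The *Socs3* promoter held 1 match to the STAT motif, TTCTTAGAA, from 154 to 146 bases before the start. The other 4 held none. None of the 5 promoters matched the AP-1 motif in this window. Among 32851 promoters of the same length, 8.30% held the STAT motif and 7.81% the AP-1 motif. The matches describe letters only, and nothing here measured binding. The RefSeq start of *Il6st* lies upstream of the gene model that was used for its expression value. That of *Socs3* lies downstream of the start of its gene model, which reaches to 117831361. The whole *Socs3* window, with its STAT match, is therefore inside that gene model.

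By count, 1 of the 8 genes rose, 0 fell and 7 were not called, beside 1.67% and 2.89% of all genes tested. The 8 had a median difference of 0.13 and all genes one of -0.047. With the replicate block 1 of 8 rose (*Stat3*) and 0 fell, beside 3.58% and 7.2% of all genes. Within numbers, *Stat3*, *Il6ra*, *Il6st* and *Il27ra* were higher in the *Junb*-deficient library of every number, as were 15.7% of all genes. *Il10ra* was lower in every number, as were 22.3% of all genes, and *Il10rb*, *Socs3* and *Socs1* were mixed. These counts describe genes that were chosen with earlier results of these libraries known.

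**Figure D3:**
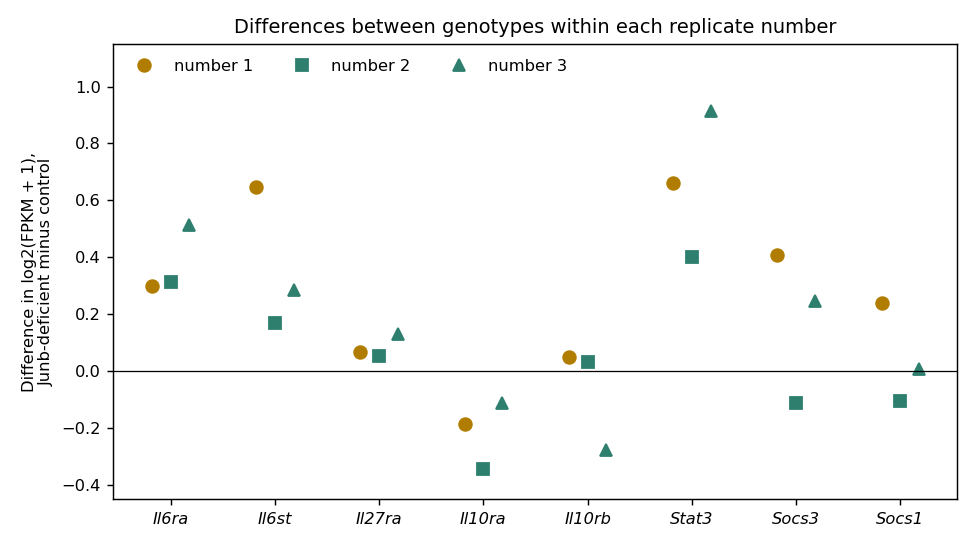
Difference in log2(FPKM + 1) between the Junb-deficient and the control library of each replicate number (y axis) for the 8 genes (x axis); the circles are number 1, the squares number 2 and the triangles number 3. All 3 symbols are above 0 for Il6ra, Il6st, Il27ra and Stat3 and below 0 for Il10ra, and Stat3 runs from 0.40 to 0.91.

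FPKM is scaled by length, so levels of different genes can be set side by side. In controls the order of mean levels was *Il27ra*, *Stat3*, *Il10rb*, *Socs3*, *Il6ra*, *Il6st*, *Il10ra* and *Socs1*, from 67.0 down to 31.9 FPKM. Every pair of neighbours in that order overlapped in range over the libraries, although *Socs3* was above *Il6ra* in each of the 3 controls. In *Junb*-deficient libraries *Stat3* stood first at 102 FPKM, followed by *Il27ra*, *Socs3*, *Il6ra*, *Il6st*, *Il10rb*, *Socs1* and *Il10ra*, again with overlapping neighbours, although *Il10rb* was above *Socs1* in each library. *Stat3* was above *Il27ra* in all 3 *Junb*-deficient libraries and in 1 of 3 controls. All 8 genes were well expressed, each above 74.4% or more of the tested genes in controls by mean level.

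Ratios between partners were then compared within libraries. For each unit of *Stat3* the controls held 0.805, 0.769 and 0.622 units of *Socs3*, and the *Junb*-deficient libraries 0.675, 0.535 and 0.390. The ratio was lower in the *Junb*-deficient library of every number, while the groups overlapped through *Junb*-deficient 1 and control 3. *Socs1* per *Stat3* was likewise lower in every number, at 0.280, 0.698 and 0.606 against 0.209, 0.489 and 0.321. *Stat3*, the divisor, was itself higher in the *Junb*-deficient library of every number. A gene without change would therefore also show a lower ratio to it. For the receptor pairs, *Il27ra* per *Il6st* was 1.78, 1.80 and 2.07 in controls and 1.18, 1.65 and 1.86 in *Junb*-deficient libraries, lower in every number with overlapping groups. The divisor *Il6st* was also higher in every number. *Il6ra* per *Il6st* was close to even in all libraries but control 1 (1.43), and averaged 1.06 ± 0.315 before and 1.04 ± 0.0719 after deletion (SD, n = 3). *Il10ra* per *Il10rb* was 1.01, 0.669 and 0.533 in controls and 0.855, 0.512 and 0.600 in *Junb*-deficient libraries, highest in number 1 of each genotype. An exact permutation test of 3 against 3 libraries cannot go below p = 0.1, so no p values are given for these ratios.

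The 8 genes also differed between the libraries numbered 1 and the others, in the same way in both genotypes for 6 of them. *Il6ra*, *Stat3* and *Socs3* were highest in number 1 of each genotype, as were 23.7% of all genes tested. *Socs3* was at 1.62 times the mean of numbers 2 and 3 in controls and at 2.07 times in *Junb*-deficient libraries, and *Stat3* was at 1.40 and 1.38 times. *Il27ra*, *Il10rb* and *Socs1* were lowest in number 1 of each genotype, as were 29.3% of all genes. *Socs1* was at 0.598 and 0.737 times the mean of the other numbers, *Il10rb* at 0.611 and 0.691 times and *Il27ra* at 0.813 and 0.800 times. *Il10ra* differed little, at 1.03 and 1.07 times. *Il6st* was the one gene whose direction differed, at 0.881 times in controls and 1.19 times in *Junb*-deficient libraries, which was not tested. Only the sample names set these libraries apart in the labels, and the summed levels of early response genes (2200 and 3026 against 970 to 1443 FPKM) and myeloid markers differed along with them. Their part in these differences was not tested.

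**Figure D4:**
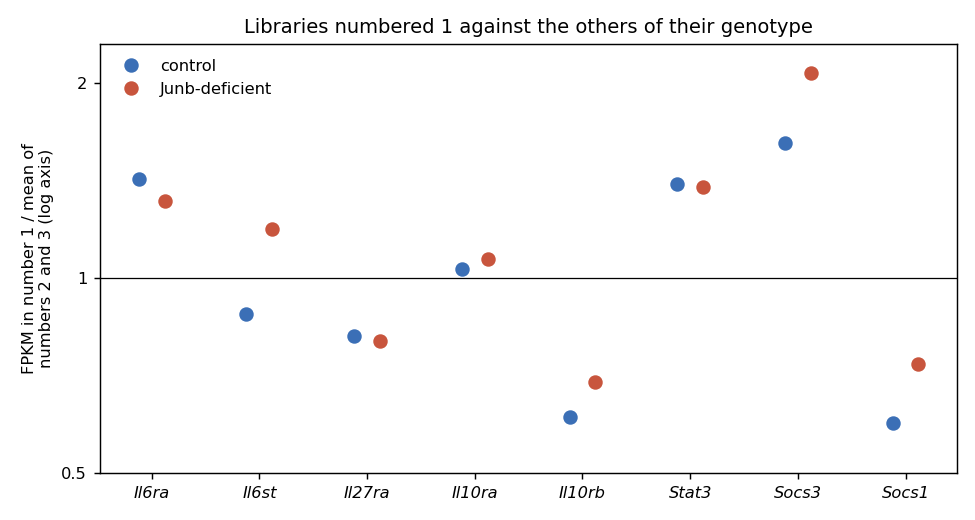
FPKM in the library numbered 1 divided by the mean of numbers 2 and 3 of the same genotype (y axis, log scale) for the 8 genes (x axis), in control (blue) and Junb-deficient (red) cells. Socs3 lies highest at 1.62 and 2.07, and Il10rb and Socs1 lie lowest between 0.598 and 0.737.

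The ligands of these receptors were then examined in a list of 15 genes, of which 6 were tested and 9 were too low. Among the 6 there was 1 that rose and 0 that fell, beside 1.67% and 2.89% of all genes tested, and their median difference was 0.22, against -0.047 over all genes. *Ebi3*, which encodes the subunit that IL-27 and IL-35 share, rose from 19.2 ± 1.33 to 29.3 ± 4.03 FPKM (SD, n = 3; difference 0.58, limma, adjusted p = 0.834). The controls had 20.3, 17.7 and 19.5 FPKM of it and the *Junb*-deficient libraries 25.01, 29.7 and 33.0 FPKM, with no overlap (as for 4.58% of all genes), and the call was lost without *Junb*-deficient 3 (0.49). The other subunit of IL-27, *Il27*, was at most 0.129 FPKM in any library, and *Il12a*, the partner in IL-35, at most 0.391. *Il10* measured 49.6, 9.43 and 8.93 FPKM in the controls and 12.01, 2.77 and 4.28 FPKM after deletion. It was lower in every number, and its groups overlapped because both libraries numbered 1 were the highest of their genotype. The difference of -1.45 (SE 0.71) did not pass in the unpaired test (limma, adjusted p = 0.834). *Il10* fell with the replicate block (limma, adjusted p = 0.0812) and without both libraries numbered 1 (difference -1.19, limma, adjusted p = 0.0499), and its adjusted p ran from 0.00338 to 0.9998 over the alternatives. Without control 1 alone the difference was -0.67 and not called, and without *Junb*-deficient 1 alone it was -1.96. *Lif*, a ligand of gp130, also rose with the block (difference 0.79, limma, adjusted p = 0.275). *Junb*-deficient 1 had 14.0 FPKM of it and the other libraries 2.02 to 4.67, and without both libraries numbered 1 the difference was 0.48 and not called. *Il6* was at most 0.320 FPKM and was listed at 0 in 3 libraries.

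Other receptor chains gave no gene that rose or fell in the unpaired test of all libraries, beside 1.67% and 2.89% of all genes. Of 10 chains of the gp130 family and its neighbours, 5 were tested, with a median of -0.20. *Crlf2*, the TSLP receptor chain, which does not use gp130, and *Il11ra1*, the IL-11 receptor chain, had the smallest p (differences -0.50 and -0.49). *Crlf2* fell with the replicate block (limma, adjusted p = 0.252). Without both libraries numbered 1, where 6.74% of all genes rose and 13.2% fell, *Il11ra1* (-0.81) and *Crlf2* (-0.51) fell and *Il23r*, the IL-23 receptor chain, rose (1.27, against 0.37 in all libraries). *Lifr* and *Osmr*, the chains that pair with gp130 for LIF and oncostatin M, were at most 2.51 and 0.0241 FPKM and were not tested. In the IL-10 and interferon receptor class 5 of 8 chains were tested, with a median of 0.03, and *Il20rb* and *Ifngr2* had the smallest p (differences 0.53 and 0.42), the latter turning to -0.018 without *Junb*-deficient 1.

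Downstream of the receptors, none of the 10 Janus kinases and other STATs rose or fell in the unpaired test (1.67% and 2.89% of all genes did), 8 had a positive difference, as did 44.0% of all genes, and the median was 0.20. *Stat6*, which transmits IL-4 signals, was at 78.8 to 84.8 FPKM in controls and 93.6 to 111 FPKM in *Junb*-deficient libraries, without overlap, as for 4.58% of all genes (difference 0.33, limma, adjusted p = 0.834). *Stat5b*, which transmits IL-2 signals, had a difference of 0.36 (limma, adjusted p = 0.834), and with the replicate block only *Stat5a* rose. Under quantile scaling *Stat6* (0.52) and *Stat5b* (0.50) rose. The 6 other SOCS family genes all had positive differences, as did 44.0% of all genes, with a median of 0.24. None passed in the unpaired test, beside 1.67% and 2.89% of all genes. *Socs7* and *Socs4* had the smallest p (differences 0.48 and 0.22), and *Socs7* rose without both libraries numbered 1 (0.61). Among 11 tested phosphatases, PIAS proteins, shedding proteases and adaptors none passed, beside 1.67% and 2.89% of all genes, with a median of 0.14. *Pias4* (0.23) and the phosphatase *Ptpn2* (-0.26) had the smallest p, and *Ptpn2* fell without both libraries numbered 1 (-0.53).

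Genes that STAT3 can induce, a list from general knowledge whose members also answer to other factors, were examined last. Of 19 tested genes 0 rose and 3 fell, beside 1.67% and 2.89% of all genes tested, and the other 16 were not called. Their median difference was 0.16, against -0.047 over all genes. The genes that fell were *Junb* itself, the transcription factor *Maf* and *Prdm1*, which encodes Blimp1. *Junb* is the deleted gene, and the study discussed *Maf* and *Prdm1* from these libraries, so the direction of none of these is independent evidence. The study placed *Maf* among the genes that JunB raises. It placed *Prdm1* among those raised by BATF and not by JunB, so the call of *Prdm1* here differs from the study. *Maf* fell by 1.21 on the log2 scale (SE 0.19) and *Prdm1* by 0.78 (SE 0.32). *Prdm1* lost its call without control 1 (-0.44), *Junb*-deficient 1 (-0.70), *Junb*-deficient 2 (-0.72) or both libraries numbered 1 (-0.37), with median-ratio scaling (-0.74) and with no filter on low values (-0.78). With the replicate block 2 rose, *Batf* and *Il4ra*, and the same number of genes, 3, fell, beside 3.58% and 7.2% of all genes.

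**Figure D5:**
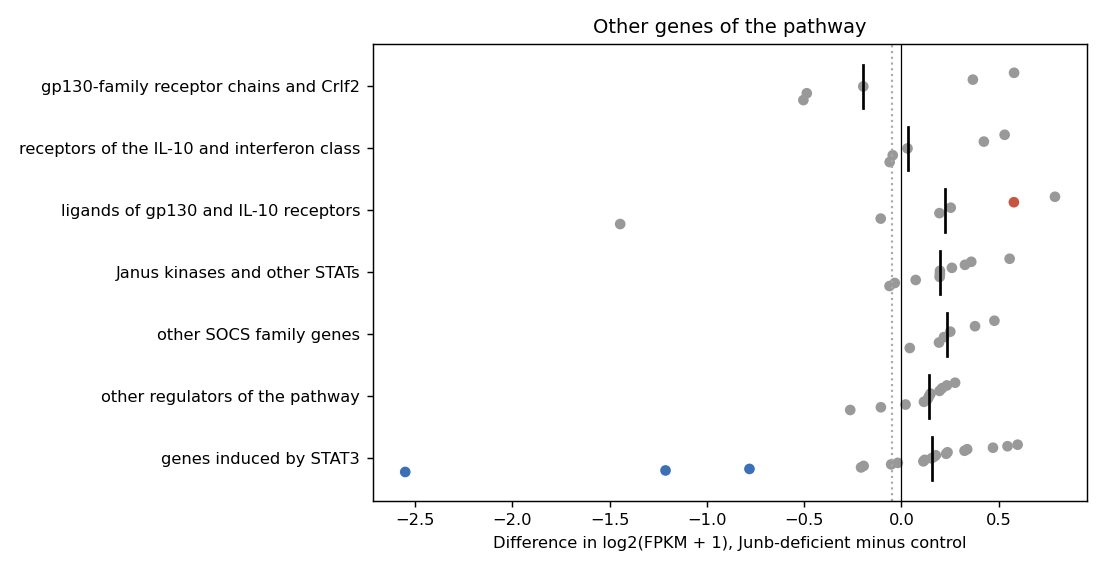
Difference in log2(FPKM + 1), Junb-deficient minus control (x axis), of each tested gene in 7 lists of the pathway; black bars are list medians, the dotted line is the median of all genes (-0.047), and red and blue points rose and fell. Ebi3 is the 1 red point at 0.58, and Junb, Maf and Prdm1 are the 3 blue points.

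To ask which genes were most like *Il6st* and *Socs3* in their pattern, the Pearson correlation of log2(FPKM + 1) was taken over the 6 libraries, as a description with no test. For *Il6st* the nearest were *Ccnt2* (0.987), *Plekhg2* (0.985) and *4833422C13Rik* (0.985), the last at 0.377 to 2.46 FPKM only. For *Socs3* they were *Tox4* (0.994), *Brd2* (0.991) and *Uap1* (0.990), each highest in the libraries numbered 1. *Brd2*, which encodes a bromodomain protein, measured 132 and 152 FPKM in the libraries numbered 1 and 88.0 to 106 FPKM elsewhere. The 6 points share library and depth with those of every other gene.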

How the data were processed

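RNA of sorted Treg cells was sequenced with a strand-specific kit. The authors deposited FPKM, and the submitters' processing notes name TopHat2 2.2.1, Cufflinks and the build mm9. Any further scaling, the strand setting and the treatment of multi-matching reads are not given in the sources used here. GENCODE held every one of the 37305 identifiers. Columns numbered 1 were assigned by elimination, since those sample names carry no number. The 11781 genes averaging 1 FPKM or more entered an unpaired, 2-sided limma test (3.58.1, R 4.3.3) with trend on log2(FPKM + 1), which understates changes of low genes, and p values were adjusted over all of them by the Benjamini-Hochberg method. The scripts were tried on simulated data.

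Each library's deviations from its genotype mean were correlated over 11781 genes, which are not independent replicates. The values were 0.57, 0.42 and 0.24 within numbers 1, 2 and 3 and -0.53 to 0.41 between others. Control 3 correlated more with *Junb*-deficient 2 (0.41) than with *Junb*-deficient 3 (0.24), so these values do not settle a pairing of numbers 2 and 3. The labels do not say that libraries of the same number are pairs. A fit with the replicate block was set beside the unpaired one with that limit. Without block, 197 genes rose and 340 fell. With it, 422 rose and 848 fell.

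The 8 genes, the lists and the rule for naming genes (2 with the smallest p and every called gene per pathway list, 3 most similar genes for *Il6st* and *Socs3*) were chosen with earlier results of these data known. *Il12a*, *Il23r*, *Il27*, *Il6*, *Lif*, *Lifr*, *Osmr*, *Stat5a*, *Ifnar2*, *Batf*, *Il4ra* and the library markers were named after their values were seen. Alternatives were quantile and median-ratio scaling, a pseudocount of 0.1, no filter, a filter at 5 FPKM, no trend and the block. A further alternative was a term for number 1 against the other numbers. The rest were a restriction to protein-coding genes, and fits without both libraries numbered 1 or without each library. A length correction (loess, span 0.5), the same with the block, and the block without the libraries numbered 1 were chosen after seeing the data. Python 3.11.15 (matplotlib 3.10.9, scipy 1.17.1, pandas 2.3.3, numpy 2.4.6) served for tables and figures.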

Additional observations from a re-analysis of the deposited data

How the results depend on the processing

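For the 8 genes, 134 of 152 values under the alternatives kept their direction and their side of the thresholds. *Stat3* did not pass with the length correction, without or with the replicate block (0.49 in both), where its difference fell just short of 0.5, and its range without single libraries was 0.50 to 0.85. It passed an adjusted p of 0.05 only in the replicate block without both libraries numbered 1 (adjusted p = 0.0439, limma), a fit of 4 libraries that called 1176 genes. Over single libraries left out, *Il6ra* ran from 0.25 to 0.54, *Il27ra* from -0.016 to 0.19, *Il10rb* from -0.30 to 0.11, *Socs3* from -0.16 to 0.41 and *Socs1* from -0.19 to 0.23. *Il10rb* was 0.073 under quantile scaling, and *Socs1* was -0.048 without both libraries numbered 1, with or without the block. Among other genes, *Ifngr2* was -0.020 without both libraries numbered 1, with or without the block, and -0.018 to 0.66 without single libraries, and *Ifnar2* was 0.0048 under median-ratio scaling, 0.087 under quantile scaling and -0.079 to 0.0061 without single libraries. The cause was not tested.

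Over all genes, 131 rose at a mean FPKM of at least 5. The replicate block called 422 higher, 848 lower and 1 past the adjusted test. A term for number 1 against the other numbers gave 415, 840 and 7. The fit without both libraries numbered 1 gave 780, 1528 and 262. The length correction gave 219 that fell, the length correction with the block 441 that rose and 1 past the adjusted test, and the block without libraries numbered 1 gave 867, 1614 and 1176. Leaving out single libraries gave 95 to 788 that rose, 204 to 1532 that fell and 0 to 1 past the adjusted test, with the highest counts without control 1. The block changed no call of the 8 genes. The block and the fit without both libraries numbered 1 left the differences of *Il6st* and *Il6ra* below 0.5. The files give no read counts, so what depth limits is unknown.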
